A study of Mus musculus with 203 samples.

Results

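Of the 203 single neurons of the mouse nucleus ambiguus (Amb) that were profiled, the 151 cardiac neurons were ranked by the share of their reads that fell on Rn45s. The 75 neurons above the median share of 35.6% (the high side) were compared with the 76 at or below it (the low side). Amb is the brainstem nucleus of vagal motor neurons, and its cardiac neurons send parasympathetic axons to ganglia on the heart. The mice were wild type animals labelled C57BL/6 (C57BL/6NCrl in the methods of the study). Newborn pups received a fluorescent cholera toxin B conjugate in the pericardial space, which labeled cardiac neurons, or in the cricothyroid muscle, which labeled the 52 laryngeal neurons. Labeled neurons were aspirated singly from acute brainstem slices at postnatal day 2 to 4 and converted to Smart-seq2 libraries, 1 neuron per library. The deposited annotation gives each cardiac neuron a type, ACP (53 neurons) or ACV (98 neurons), which the study defined by clustering the same counts. No mouse, slice or plate is named for a neuron, so each side of the split counts as 1 sample. No p-value is therefore given, and all values describe these neurons.

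Rn45s is the primary ribosomal RNA transcript, made by RNA polymerase I in the nucleolus and cut into the large RNAs of both ribosomal subunits. Ribosomal RNA is the bulk of the RNA in a cell and, unlike most messenger RNA, is not polyadenylated. Smart-seq2 primes its first strand with oligo-dT, so ribosomal RNA is not its intended substrate. A read on Rn45s in the count table cannot be told apart as precursor or mature ribosomal RNA.

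The Rn45s share spanned 12.4% to 82.5% across cardiac neurons. The shares themselves chose the sides and are a description. They ran from 35.8% to 82.5% with a median of 47.2% on the high side, and from 12.4% to 35.6% with a median of 27.4% on the low side. There was no gap at the boundary. The last neuron of the low side had 35.6% and was ACV, and the first neurons of the high side had 35.8%, 35.9% and 36.1%.

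**Figure D1:**
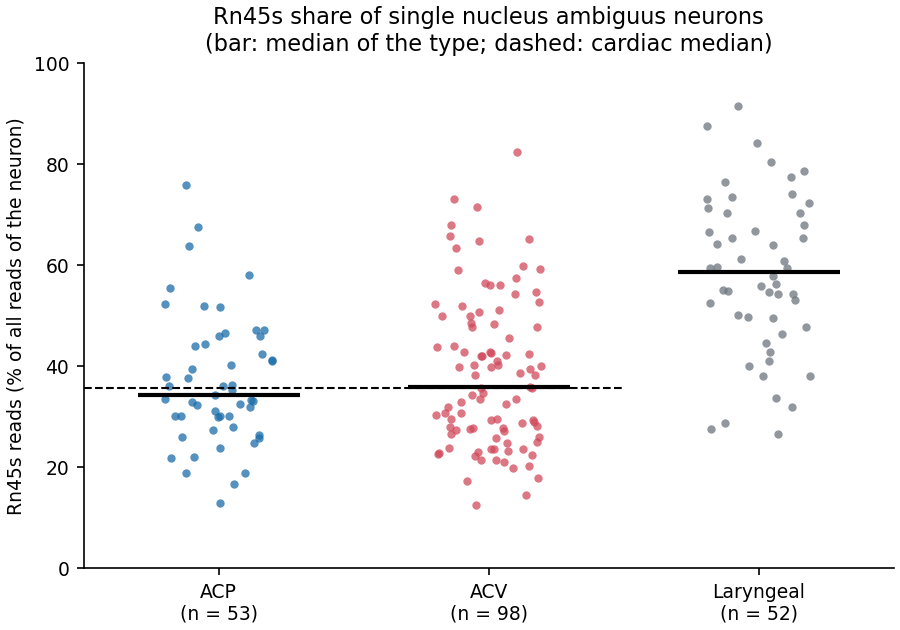
The percentage of each neuron's reads on Rn45s (y axis) is plotted for 53 ACP, 98 ACV and 52 laryngeal neurons, with a bar at the median of each type and a dashed line at the cardiac median of 35.6%. ACP and ACV neurons spread over the same range on both sides of the line, and most laryngeal neurons lie above it.

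Both cardiac types were divided almost evenly. The high side held 25 ACP and 50 ACV neurons, and the low side 28 ACP and 48 ACV neurons. ACP neurons were 33.3% of the high side (exact binomial 95% interval 22.9% to 45.2%) and 36.8% of the low side (26.1% to 48.7%), and these intervals cover counting error only. The median share was 34.3% in ACP and 35.8% in ACV neurons. With the 151 neurons cut by rank into 4 groups of 37 or 38, ACP neurons numbered 12, 16, 15 and 10 from the lowest to the highest shares. Laryngeal neurons, which the rule did not use, had a median share of 58.6% (26.6% to 91.5%).

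Rn45s reads and all other reads are the 2 parts of the share that set the sides, so their directions follow from the rule and are given as a description. Rn45s reads had a median of 858389 on the high side (402946 to 1848984) and 534813 on the low side (152040 to 1060084). Total reads were close, with medians of 1777104 and 1993017. Reads outside Rn45s had a median of 919447 on the high side (313668 to 1835762) and 1458810.5 on the low side (598906 to 2396541). The ranges overlapped for all 3 measures. In the following, a gene's level is its count per 10000 reads outside Rn45s, and a log2 difference is log2 of the ratio of the mean levels, high over low side, after 0.1 was added to each mean.

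High-share neurons also yielded fewer genes. A median of 7055 genes had at least 1 read on the high side (4257 to 12306), against 8383.5 on the low side (4462 to 11947). After each neuron was thinned to 313668 reads outside Rn45s, the medians were 6448 and 7824.5. The thinned difference was therefore about as large as the plain one. It was wider in ACP neurons, with thinned medians of 6286 and 8101.5, than in ACV neurons, with 6788 and 7722. Over neurons, the Spearman rho of thinned genes with the share was -0.64 in ACP (n = 53) and -0.18 in ACV (n = 98). Laryngeal neurons split at their own median had thinned medians of 7533 (n = 19) and 7497 (n = 25), with 8 of the 52 too shallow to thin. Over the laryngeal neurons that were thinned, the rho was nevertheless -0.26. Without thinning it was -0.41 over all 52, with a high minus low median difference of -628 genes.

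**Figure D2:**
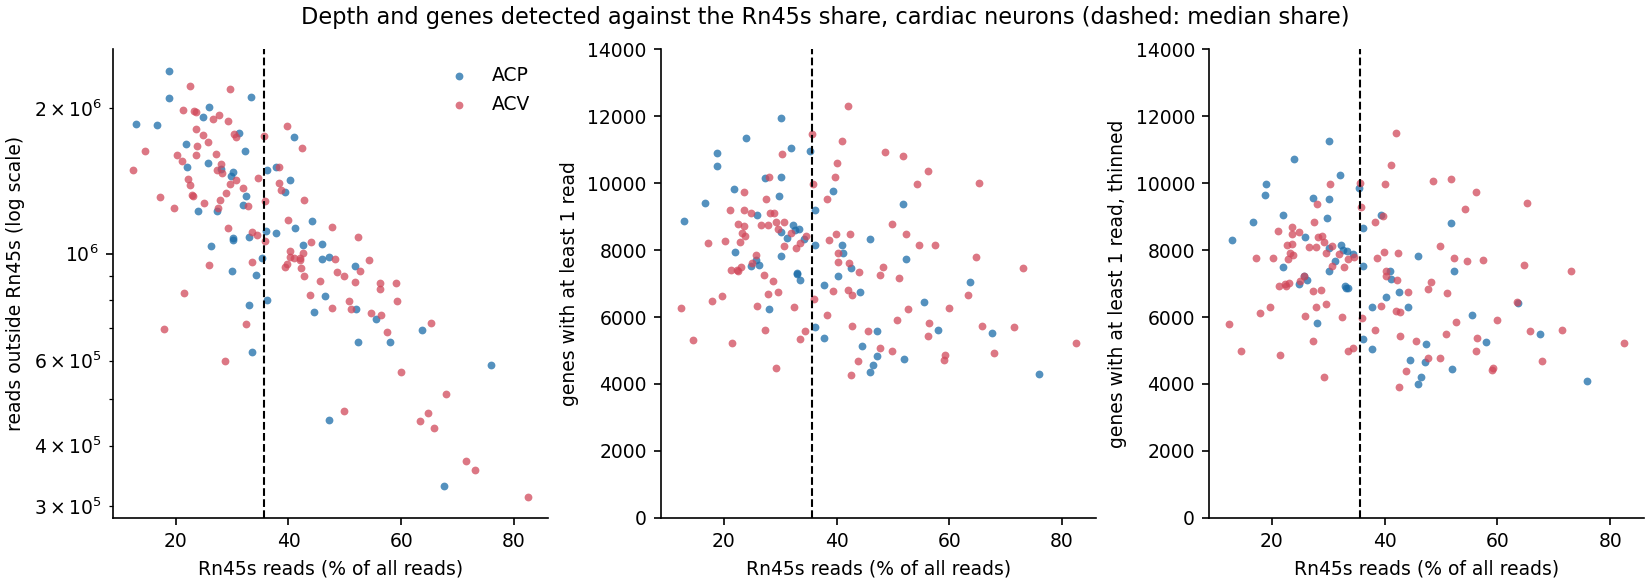
Reads outside Rn45s (left, log axis), genes with at least 1 read (middle) and the same after thinning to 313668 reads (right) are plotted against the Rn45s share, 1 point per cardiac neuron, with the median share dashed. Reads outside Rn45s, which are part of the share itself, decline with it (Spearman rho -0.73), and genes detected decline with wide scatter (rho -0.32 after thinning).

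Across 12778 genes detected in at least 10% of the cardiac neurons, the median log2 difference was 0.043. At least 2-fold higher levels on the high side were seen for 160 genes (1.25% of those compared), and at least 2-fold lower levels for 17 (0.133%). This lean toward higher genes depended on the mean: by the median level of each side, 40 genes were 2-fold higher and 1553 lower, and by the mean of log2 levels the numbers were 10 and 152. With Rn45s kept in the totals, 6 genes were 2-fold higher and 138 lower, and the median of all genes was -0.26. By the median level of each side 75 of the 160 genes were above 0. In laryngeal neurons, which did not choose them, 117 of the 160 were above 0, against 52.0% of all genes compared. There 40 of the 160 were at least 2-fold higher, against 489 of all 12778. Of the 17 lower genes, 11 were below 0 and 2 at least 2-fold lower in laryngeal neurons, against 435 of all 12778 at least 2-fold lower. The ACP and ACV neurons are parts of the set that chose the 160 genes, so their counts are only a description. At least 2-fold higher were 49 of the 160 within ACP neurons, against 317 of all 12778. Within ACV neurons, the larger part of that set, these numbers were 138 and 423.

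Lars2, which encodes mitochondrial leucyl-tRNA synthetase (chr9:123366927-123462666, mm10, plus strand), had the largest rho with the Rn45s share of all named genes, with Rpsa next. Its level was 3.51 to 89.1 with a median of 16.3 on the high side, and 2.20 to 36.2 with a median of 5.82 on the low side. The ranges overlapped, with the highest neurons all on the high side. The log2 difference was 1.70, with 1.25 in ACP and 1.91 in ACV neurons. Its Spearman rho with the Rn45s share was 0.69 over 151 cardiac neurons and 0.79 over 52 laryngeal neurons, where the log2 difference was 1.92. All neurons share one table, and the share also moves with depth. Reads counted for Lars2 were not compared with the Rn45s sequence, so whether they are Lars2 mRNA was not tested.

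Mir6236, a microRNA gene (chr9:110281287-110281409, plus strand), was the only microRNA gene among the 5 genes with the largest positive rho. The mature microRNA, from RefSeq on GRCm38.p6 (chr9:110281353-110281371), is shown because counts of this gene were higher at higher Rn45s shares, with the seed (bases 2 to 8) in capitals.
mmu-miR-6236: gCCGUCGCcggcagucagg
Its level had a median of 0.199 on the high side (0.0103 to 2.88) and 0.062 on the low side (0 to 0.526). The log2 difference was 1.08, with 1.43 in ACP, 0.87 in ACV and 1.29 in laryngeal neurons. Its rho was 0.55 in cardiac and 0.70 in laryngeal neurons. A poly(A)-primed library is not made to measure mature microRNAs. The reads were not compared with the Rn45s sequence, and which RNA they come from was not tested.

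Genes of the cytosolic ribosomal proteins, the protein part of the ribosome, were higher on the high side nearly throughout. Of 84 listed genes 80 were compared, and 79 had a log2 difference above 0, against 55.9% of all genes compared. The median was 0.60, against 0.043 for all genes, and with Rn45s kept in the totals 0.087, against -0.26. The list ran from -0.20 for Rps4l to 1.08 for Rps20, and 4 genes passed 2-fold, Rps20, Rpsa and Rps28 among them. Of all genes compared 1.25% were 2-fold higher. Rpsa, a protein of the small subunit, had a median level of 4.42 on the high side (0.560 to 21.8) and 2.45 on the low side (0.25 to 5.03). The neurons with the highest Rpsa levels were all on the high side, while the lower ends of the ranges overlapped. Rpsa had a log2 difference of 1.07 and a rho of 0.69, equal to that of Lars2 at this rounding. Rps28, also of the small subunit, had a log2 difference of 1.01 and a rho of 0.57. Of the most abundant members, Rplp0 had 0.91, Rps3 0.51 and Rpl4 0.40.

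The summed level of the list differed by type. In ACV neurons it was a median of 1.28% of the reads outside Rn45s on the high side (0.523% to 4.68%) and 0.748% on the low side (0.369% to 1.45%). In ACP neurons the medians were 0.866% and 0.860%. Median log2 differences of the list were 0.82 in ACV, with 79 of 80 genes above 0 against 57.6% of all genes, and 0.10 in ACP, with 52 of 80 above 0 against 46.4%. In laryngeal neurons the median was 0.81, with 76 of 80 above 0 against 52.0%. Whether ACP and ACV neurons differ was not tested. Among the 70 neurons with at most 900 Apoe reads the median was 0.38.

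Messenger RNAs of ribosomal proteins are known for starting in an oligopyrimidine tract (the TOP motif), a feature by which their translation is regulated together. The motif was searched as C followed by at least 7 bases that are C or T, on the transcribed strand from 50 bases before to 50 after the RefSeq start. It was found in 50 of 58 compared ribosomal protein genes with a promoter entry (86.2%), against 31.3% of 9848 other compared genes and 32.0% of all 27025 genes with an entry. On the opposite strand it was found in 20.7% of the ribosomal protein genes and 34.4% of all genes. The 4 tracts shown, in capitals, were the longest among ribosomal protein genes in a narrower search. It ended closer downstream of the start and left out the genes of a single chromosome. Flanks are from RefSeq on GRCm38.p6, written in the direction of transcription, and the log2 difference of each gene is given.
Rpl27a, chr7:109519171-109519224, plus strand, 0.52: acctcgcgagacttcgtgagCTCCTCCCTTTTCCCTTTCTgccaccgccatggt
Rpl34, chr3:130730315-130730374, minus strand, 0.059: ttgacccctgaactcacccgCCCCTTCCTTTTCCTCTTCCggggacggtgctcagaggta
Rpl7a, chr2:26910775-26910833, plus strand, 0.57: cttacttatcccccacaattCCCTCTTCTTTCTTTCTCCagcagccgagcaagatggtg
Rpl35, chr2:39005102-39005158, minus strand, 0.61: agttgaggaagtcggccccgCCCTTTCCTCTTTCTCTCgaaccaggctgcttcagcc
Presence of the tract did not order the differences. Ribosomal protein genes with it had a median log2 difference of 0.57 (50 genes), and those without it 0.61 (8 genes). Among other genes the medians were 0.062 with the tract and 0.034 without.

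Ribosomal protein genes have many near-identical copies in the genome, so counts of single members are uncertain. Mir682 was singled out after its values were seen as an example, and its log2 difference was 0.71, as was that of Rpl37a. Its RefSeq hairpin (chr13:75645046-75645141, GRCm38.p6) matches the coding part of transcript Rpl37a-201 at 95 of 96 bases. The 2 sequences are shown in DNA letters with the differing base in capitals, and the substitution, counted from the hairpin's 5′ end, is C48T.
Mir682 hairpin: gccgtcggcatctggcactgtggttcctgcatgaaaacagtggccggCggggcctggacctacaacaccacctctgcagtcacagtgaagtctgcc
Rpl37a stretch: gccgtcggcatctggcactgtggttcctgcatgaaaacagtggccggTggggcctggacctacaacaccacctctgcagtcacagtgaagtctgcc

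Genes that make or process ribosomal RNA had medians nearer the 0.043 of all genes than the ribosomal protein genes had. Of all genes compared 55.9% were above 0, 1.25% were 2-fold higher and 0.133% lower. The counts for RNA polymerase I and for processing genes below are near these shares. Of 16 genes of RNA polymerase I and its factors none passed 2-fold and 10 were above 0. Their median was 0.19, or -0.20 with Rn45s kept in the totals, where all genes had -0.26. Rrn3, the initiation factor that recruits RNA polymerase I, lay opposite to Rn45s, with a median level of 0.445 on the high side (0 to 5.33) and 0.882 on the low side (0 to 4.28), a log2 difference of -0.71 and a rho of -0.49. Ubtf, the factor that binds ribosomal DNA, had a log2 difference of 0.32. Of 47 genes of ribosomal RNA processing and the nucleolus 29 were above 0, with a median of 0.14 (-0.25 with Rn45s kept in the totals), 0.24 for Ncl and 0.29 for Npm1. None of the 12 small nucleolar RNA host genes passed 2-fold, and their median was -0.04. Translation factors had a median of 0.16 over 31 genes, with Eef1a1 at 0.54, and of -0.29 with Rn45s kept in the totals. Among long noncoding RNAs of neurons, Malat1 had 0.071 and Meg3 -0.013, each with wide spread between neurons.

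**Figure D3:**
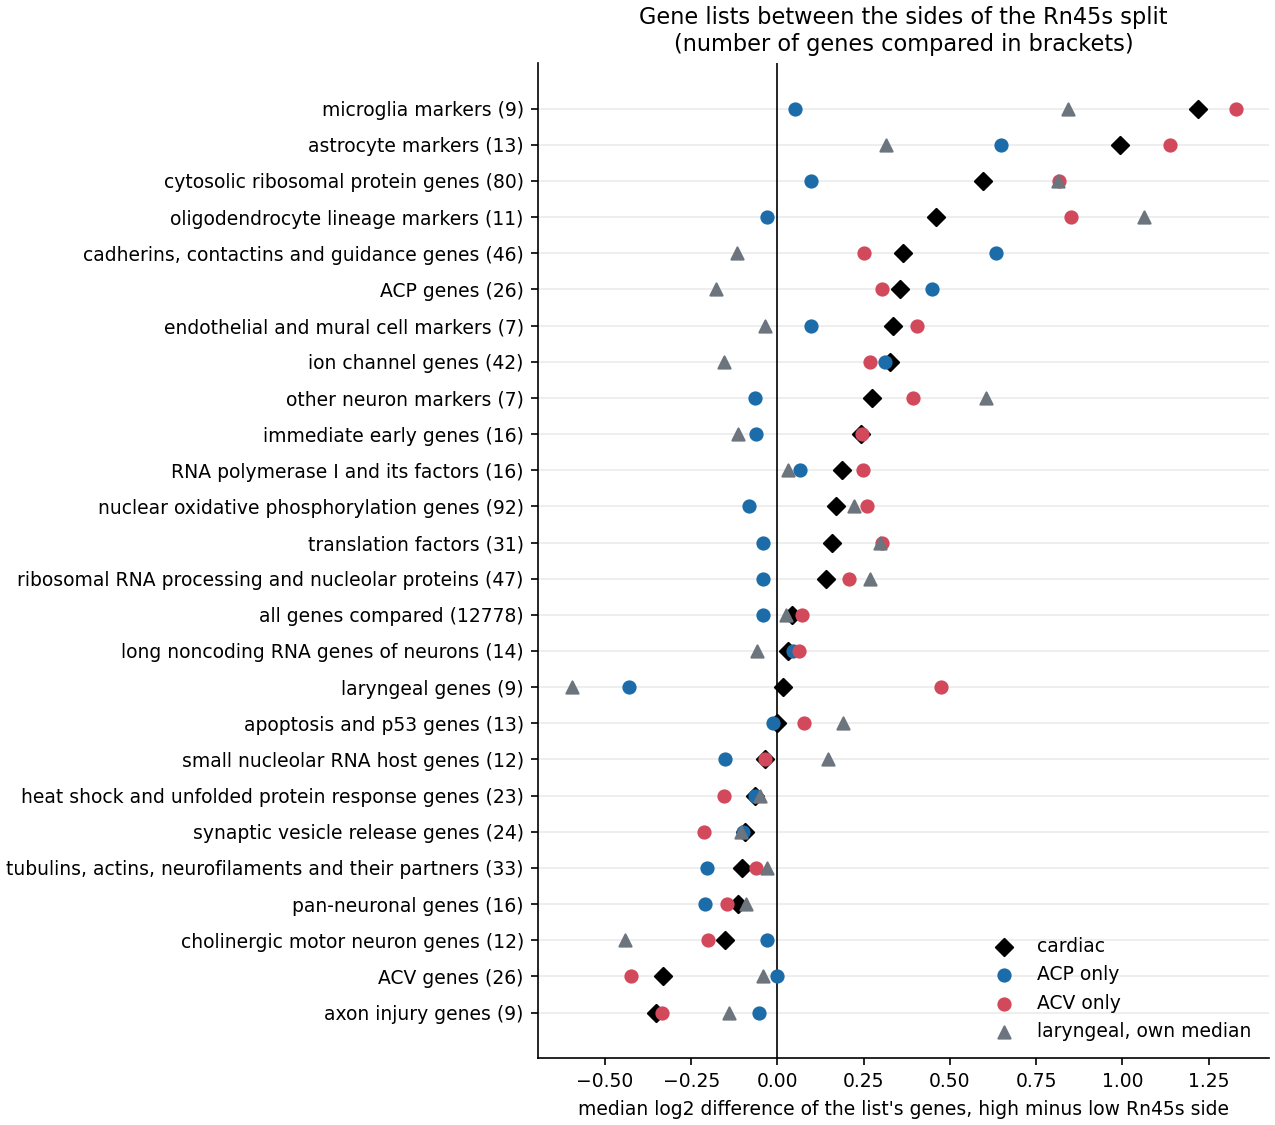
The median log2 difference (x axis, high minus low Rn45s side) is plotted for each gene list with at least 5 compared genes, for all cardiac neurons, ACP only, ACV only, and laryngeal neurons at their own median share. Ribosomal protein genes stand at 0.60 in cardiac, 0.82 in ACV and 0.81 in laryngeal neurons and near 0 in ACP neurons (0.10), and the glial lists also lie to the right in cardiac neurons.

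Markers of glia had higher mean levels on the high side, although the study limited Apoe, an apolipoprotein of astrocytes, when it selected neurons. All 13 compared astrocyte markers (of 14) were above 0, with a median of 0.99, and 6 passed 2-fold (Fabp7, Gfap, Aqp4, Slc1a3, Apoe and Slc7a10). The shares over all genes compared were 55.9% above 0 and 1.25% at least 2-fold higher. By the median level of each side, the list median was only 0.23, against -0.049 for all genes compared. The summed level of the astrocyte markers had a median of 0.380% of the reads outside Rn45s on the high side (0.0730% to 2.25%) and 0.223% on the low side (0.0449% to 3.23%). The neuron with the highest level was thus on the low side, and the ranges overlapped. Fabp7, a fatty acid binding protein of radial glia and astrocytes, had a median level of 4.99 on the high side (0 to 56.9) and 1.5 on the low side (0.0065 to 16.9), a log2 difference of 1.95 and a rho of 0.47. Aqp4, the water channel of astrocytes, was detected in 60% of high-side neurons (exact 95% interval 48.0% to 71.1%) and 46.1% of low-side neurons (34.5% to 57.9%), or 52.0% and 40.8% after thinning. Apoe reads had a median of 1307 on the high side and 698.5 on the low side, and 25 neurons of the high side and 14 of the low side had more than 1800 in the deposited counts.

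All 9 microglia markers were above 0, with a median of 1.22, and 5 passed 2-fold (C1qa, C1qb, C1qc, Tyrobp and Trem2). Of all genes compared 55.9% were above 0 and 1.25% were 2-fold higher. Within ACP neurons 6 of 9 were above 0, against 46.4% of all genes. C1qa, a complement subunit, was detected in 27 neurons of each side (36.0% and 35.5%), with a median level of 0 on both sides and highest values of 18.8 on the high and 5.24 on the low side. The summed microglia level had medians of 0.00470% and 0.00181%, and the list's median log2 difference was 0.051 in ACP and 1.33 in ACV neurons. Of 12 oligodendrocyte lineage markers 11 were compared, 10 were above 0 and 3 passed 2-fold (Pdgfra, Olig1 and Mbp), with a median of 0.46. By the median level of each side, the list median was 0, as it was for microglia markers. In ACP neurons the oligodendrocyte list had -0.031 (5 of 11 above 0, against 46.4% of all genes), and in ACV neurons 0.85. Among neurons with at most 900 Apoe reads, the median of that list was -0.11, of astrocyte markers 0.56 and of microglia markers 0.77. Endothelial and mural markers had a median of 0.34 over 7 of 12 genes. The 4 hemoglobin genes of the blood cell list had no reads in any cardiac neuron, and its remaining member Alas2, a heme synthesis enzyme, was detected in 18.7% of high-side and 40.8% of low-side neurons, with a log2 difference of -0.58. The part of these cell types in the differences of other genes was not tested.

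The 10 genes with the largest higher levels that were detected in at least 50% of the neurons, with the same sign in both types, were Ptgds, Fabp7, Lars2, Aqp4, Timp4, Id3, Mt1, Vim, Dbi and Sparc. Ptgds, prostaglandin D synthase, had the largest difference, 2.12, with a median level of 0.618 on the high side (0 to 75.7) and 0.220 on the low side (0 to 12.1). Dbi, the acyl-CoA binding protein, had reads in every neuron, with a median level of 2.93 on the high side (0.00996 to 19.4) and 1.17 on the low side (0.173 to 6.54). Sparc, a matrix glycoprotein, had a difference of 1.48 and Mt1, a metallothionein, of 1.54. Timp4, a metalloproteinase inhibitor, had a difference of 1.62 by means, but its median level was 0.0176 on the high and 0.0325 on the low side. In laryngeal neurons, Vim (0.080), Aqp4 (0.20) and Id3 (0.30) differed least and Timp4 had 1.72.

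**Figure D4:**
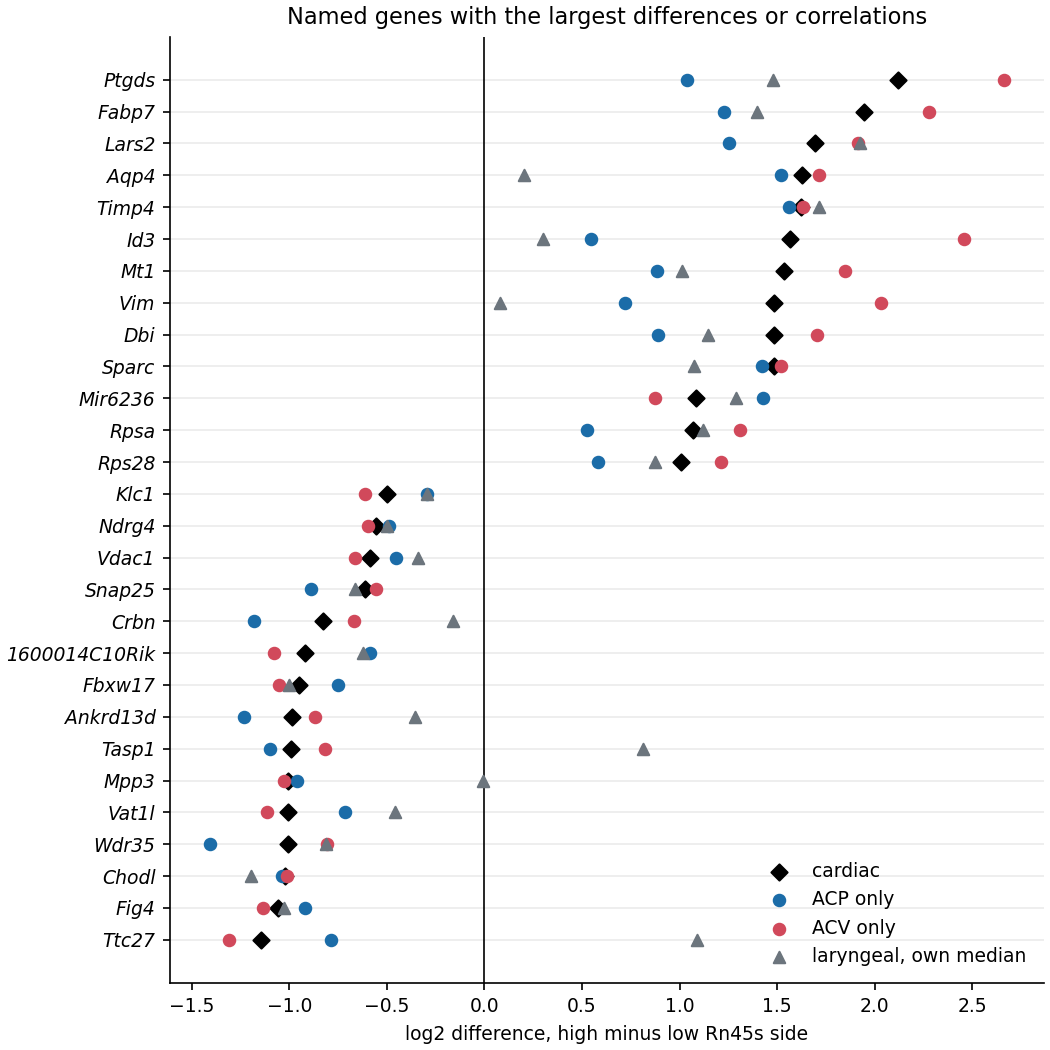
The log2 difference (x axis, high minus low Rn45s side) is plotted for the named genes with the largest differences or correlations, for cardiac, ACP, ACV and laryngeal neurons. Lars2, Rpsa and Rps28 lie to the right in all 4, and Ttc27 and Tasp1 lie to the left in cardiac neurons and to the right in laryngeal neurons.

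Of genes with reads in 50% or more of the neurons and the same sign in both types, the 10 with the largest lower levels were Ttc27, Fig4, Chodl, Wdr35, Vat1l, Mpp3, Tasp1, Ankrd13d, Fbxw17 and 1600014C10Rik. Vat1l was the most abundant of these, with a median level of 5.87 on the high side (0 to 38.9) and 17.2 on the low side (0 to 43.9). Its log2 difference was -1.01, with -0.72 in ACP, -1.11 in ACV and -0.46 in laryngeal neurons. Fig4, a phosphoinositide phosphatase subunit, had a log2 difference of -1.06 and was detected in 53.3% of high-side and 84.2% of low-side neurons. Chodl, a membrane protein with a lectin domain, had -1.02 in cardiac and -1.20 in laryngeal neurons. Ttc27 had -1.15 in cardiac but 1.09 in laryngeal neurons.

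Among the same genes, the 5 with the most negative rho with the Rn45s share were Vdac1, Ndrg4, Snap25, Crbn and Klc1. Vdac1, the outer membrane channel of mitochondria, had a rho of -0.55, with a median level of 5.71 on the high side (0.0444 to 18.3) and 9.10 on the low side (2.35 to 15.0). Ndrg4 had a rho of -0.54 and a median level of 20.03 against 31.3. Snap25, a membrane fusion protein of synaptic vesicle release, had a rho of -0.51 and a median level of 9.81 (0.226 to 35.7) against 16.8 (3.74 to 37.3). Crbn had a rho of -0.50 and Klc1, a kinesin light chain, of -0.49. The lowest neurons of Vdac1, Snap25, Ndrg4 and Klc1 were on the high side, and the ranges overlapped. Crbn overlaps Trnt1 and Klc1 overlaps Xrcc3, as Timp4 does Syn2 and Rps28 does Kank3 on the opposite strand, so counts of these genes are uncertain. In laryngeal neurons the rho was -0.33 for Vdac1, -0.53 for Ndrg4, -0.36 for Snap25, -0.26 for Crbn and -0.30 for Klc1.

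By mean levels, lists of genes that neurons share had medians nearer 0 than the ribosomal protein and astrocyte lists. This order depended on the mean. By the median level of each side, the list medians were -0.43 for cholinergic, -0.29 for vesicle release and -0.28 for pan-neuronal genes. Tubulins, actins and neurofilaments had -0.16. The same measure was 0.40 for ribosomal protein genes, 0.23 for astrocyte markers and -0.049 for all genes. No pan-neuronal, cholinergic, vesicle release or cytoskeletal gene passed 2-fold. Only 1.25% of all genes compared were 2-fold higher and 0.133% lower, so none in such short lists is near the share over all genes. Above 0 by any amount were 55.9% of all genes. Pan-neuronal genes had a median of -0.12 (5 of 16 above 0), synaptic vesicle release genes -0.10 (9 of 24) and tubulins, actins and neurofilaments -0.10 (10 of 33). Cholinergic motor neuron genes, which define the cell type, had a median of -0.15 over 12 of 13 genes. Chat, which makes acetylcholine, was detected in all 151 neurons, and the vesicular transporter Slc18a3 had a median level of 6.32 on the high side and 8.48 on the low side. Isl1, a transcription factor of motor neurons, was detected in all 76 low-side neurons and in 67 of 75 high-side neurons, or 65 after thinning. Tbx20, a T-box factor of hindbrain motor neurons singled out after its values were seen, was detected in 52.0% of high-side (40.2% to 63.7%) and 80.3% of low-side neurons (69.5% to 88.5%), with the same shares after thinning, but its log2 difference was only -0.13. Ion channel genes had a median of 0.33 (34 of 42 above 0) and cadherins, contactins and guidance genes 0.37 (39 of 46), and in laryngeal neurons these were -0.16 and -0.12. With Rn45s kept in the totals the cardiac medians were -0.13 and -0.094, against -0.26 for all genes. By the median level of each side, with totals without Rn45s, they were 0 and 0.026, against -0.049 for all genes. Of 7 compared markers of other neurons 6 were above 0, with a median of 0.27. Slc17a6, the vesicular glutamate transporter, had 1.10, but -0.24 within ACP neurons. Slc6a5, the glycine transporter, had -1.03, with a median level of 0 on both sides. It was detected in 21.3% of high-side and 18.4% of low-side neurons.

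By median log2 difference, stress lists held no common direction. Immediate early genes had a median of 0.24, heat shock and unfolded protein response genes -0.066, apoptosis and p53 genes -0.0016 and axon injury genes -0.35. Over cardiac neurons, the rho of their summed levels with the share was -0.13, 0.0042, -0.0031 and -0.44, in the same order. For axon injury genes it was -0.37 in ACP, -0.54 in ACV and -0.29 in laryngeal neurons. Npy, a neuropeptide of the axon injury list, passed 2-fold with 1.47, but only 3 of that list's 9 compared genes were above 0. Pnoc, the nociceptin precursor of the laryngeal list, passed 2-fold with 1.14, and 5 of 9 compared genes there were above 0. No other gene of either list passed 2-fold. Of all genes compared 55.9% were above 0 and 1.25% were 2-fold higher. Nuclear oxidative phosphorylation genes had a median of 0.17 (62 of 92 above 0), against 0.043 for all genes. With Rn45s kept in the totals it was -0.30, against -0.26 for all genes. Within ACP neurons 37 of 92 were above 0, against 46.4% of all genes, and within ACV neurons 71 of 92, against 57.6%.

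The genes that separate ACP from ACV neurons kept their direction on both sides, as the types were defined on these counts. All 26 ACP genes had a higher mean in ACP than in ACV neurons on each side, with a median log2 difference between types of 2.02 on the high and 1.86 on the low side. All 26 ACV genes had a higher mean in ACV neurons on each side, with medians of -1.91 and -2.20. Between the sides, ACP genes had a median of 0.36 (22 of 26 above 0) and ACV genes of -0.33 (3 of 26). Of all genes compared 55.9% were above 0. Within ACP neurons, 18 of 26 ACP genes and 11 of 26 ACV genes were above 0, against 46.4% of all genes. Within ACV neurons the counts were 24 and 2 of 26, against 57.6%. By the median level of each side, the cardiac list medians were 0 for ACP genes and -0.24 for ACV genes. Trhr, the thyrotropin-releasing hormone receptor, was detected in 18 of 25 ACP neurons of the high side and 22 of 28 of the low side. Tacr3, the neurokinin receptor, was detected in 11 of 25 and 23 of 28, or 11 and 22 after thinning. Ghsr, the ghrelin receptor, was detected in 29 of 50 ACV neurons of the high side and 36 of 48 of the low side, and in none of the ACP neurons.

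**Figure D5:**
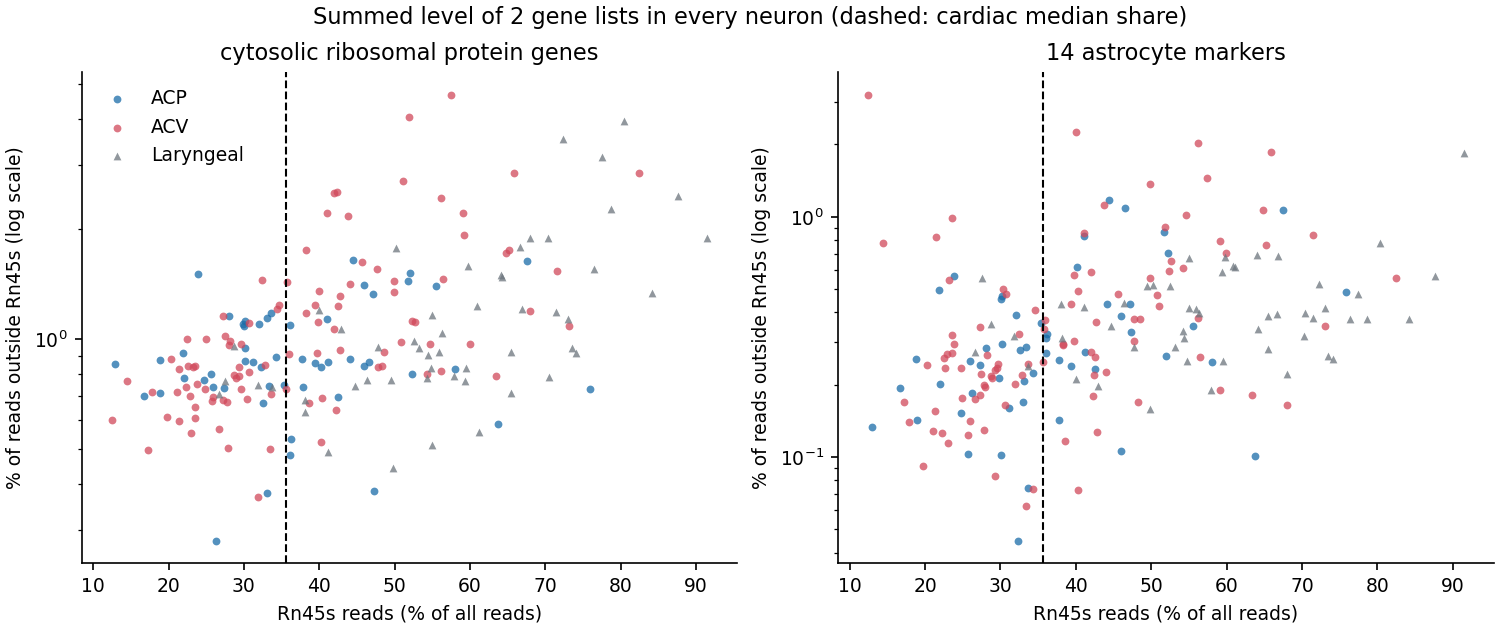
The summed reads of cytosolic ribosomal protein genes (left) and of 14 astrocyte markers (right), as a percentage of reads outside Rn45s on a log axis, are plotted against the Rn45s share for every ACP, ACV and laryngeal neuron, with the cardiac median share dashed. Both levels are higher at higher shares with wide scatter, with a Spearman rho for ribosomal proteins of 0.65 in ACV, 0.65 in laryngeal and 0.15 in ACP neurons, and for astrocyte markers of 0.43 in all cardiac neurons.

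The levels of 4 lists were also taken over the 4 ranked groups of the Rn45s share, with both types pooled. From the lowest to the highest group, the median summed level of ribosomal protein genes was 0.735%, 0.858%, 1.06% and 1.34% of the reads outside Rn45s. Astrocyte markers had 0.217%, 0.223%, 0.312% and 0.520%, with most of the difference in the upper groups. Synaptic vesicle release genes had 1.08%, 0.998%, 0.970% and 0.872%, and cholinergic motor neuron genes 0.584%, 0.529%, 0.512% and 0.456%. The rho of the summed level with the share was also taken within each type, without a test between types. For vesicle release genes it was -0.0035 in ACP and -0.43 in ACV neurons, and for cholinergic genes 0.085 and -0.44. Among cholinergic genes, Slc18a3 had a log2 difference of 0.23 in ACP and -0.64 in ACV neurons, and Ache, which breaks down acetylcholine, of 0.64 and -0.71. Transcript length was weakly related to the differences, with a Spearman rho across 12589 genes of 0.095, and genes are not independent replicates. Outside the ribosomal protein list, the 535 compared genes with a longest transcript of up to 1000 bases had a median of 0.092, and the 821 genes over 8000 bases one of 0.21. The bins between had medians of 0.018, -0.0093 and 0.082 in order of length. In laryngeal neurons the rho with length was -0.11, with medians of 0.21 up to 1000 bases and -0.019 over 8000 bases.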

How the data were processed

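The authors trimmed the reads, aligned them to mm10 with STAR 2.6.1d, and deposited whole-number read counts per gene for 24029 genes in 203 neurons (PCR reads without molecular identifiers). The counting tool, its annotation and whether strand was used are not given in the sources used here, so a gene and its antisense partner cannot be told apart. The authors removed neurons with under 500000 aligned reads or over 1800 Apoe counts. In the deposited counts 39 cardiac neurons exceed 1800, and why was not tested. A deposited CPM table was not used.

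Neurons were grouped by the deposited target and type annotation. Counts were divided by totals without Rn45s and multiplied to 10000. Genes with at least 1 read in 10% of the cardiac neurons were compared by log2 of the ratio of means plus 0.1, and called at 2-fold. No 2 neurons had identical counts. The fold calculation was tested on simulated data. Thinning drew 313668 reads per neuron without replacement. Total counts per cardiac neuron were 840315 to 3175434, and intervals (Clopper-Pearson, 95%) cover counting error only. A level of 0 means no read at that depth. Named genes were Rn45s, the 10 largest differences per direction among genes with reads in 50% or more of the cardiac neurons and the same sign in ACP and ACV neurons, the 5 largest rho per direction among these, the 3 most abundant members of each of 27 lists, and members past 2-fold detected in 50% of the neurons, and 1 of these genes is not reported here. The members, lists and rules were chosen with earlier results of these data known. Alternatives were other scalings (edgeR 4.0.16 TMM, DESeq2 1.42.0 size factors), pseudocounts, filters, fold limits, splits and subsets. Positions are from GENCODE on mm10. Python 3.11.15 (pandas 2.3.3, scipy 1.17.1) and R 4.3.3 were used.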

Additional observations from a re-analysis of the deposited data

How the results depend on the processing

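Each alternative changed 1 choice, except that the laryngeal neurons also took their own median. So did the ACP counts among neurons with at most 900 Apoe reads and among neurons with at least 1000000 reads. The number of genes at least 2-fold higher and lower on the high side, 160 and 17, was 6 and 138 with Rn45s in the totals, 5 and 0 with a pseudocount of 1, 958 and 317 with 0.01, 103 and 9 with summed counts, 10 and 152 with the mean of log2 levels, 471 and 99 for the 50 highest against the 50 lowest shares, 1008 and 325 at 1.5-fold, 12 and 0 at 3-fold, 317 and 336 in ACP neurons, 423 and 54 in ACV neurons, 424 and 235 in neurons with at most 900 Apoe reads, and 489 and 435 in laryngeal neurons. A split by Rn45s reads gave 53 higher. Chosen after seeing the data, genes detected in 50% of the neurons gave 75 and 6, and medians of each side 40 and 1553. Leaving out each high-side neuron in turn gave 142 to 167 higher and 13 to 18 lower.

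ACP neurons on the high side numbered 14 among those with at most 900 Apoe reads, split at their own median. List medians with Rn45s in the totals were -0.48 for long noncoding RNAs, -0.20 for RNA polymerase I, -0.25 for ribosomal RNA processing, 0.087 for ribosomal proteins, -0.30 for oxidative phosphorylation, -0.29 for translation factors, -0.63 for pan-neuronal, -0.66 for cholinergic, -0.56 for vesicle release, -0.60 for tubulins, actins and neurofilaments, -0.13 for ion channels, -0.094 for cadherins, -0.70 for ACV genes, -0.46 for heat shock and 0.52 for microglia. A pseudocount of 1 gave 0.31 for ribosomal proteins and 0.29 for microglia, and the 50 highest against the 50 lowest shares 0.91 for endothelial markers. ACP neurons alone gave 0.099 for ribosomal proteins, 0.051 for microglia and 0.00 for ACV genes, and neurons with at most 900 Apoe reads -0.11 for oligodendrocyte markers. Laryngeal neurons gave -0.16 for ion channels, -0.12 for cadherins, -0.18 for ACP genes, -0.60 for laryngeal genes, -0.12 for immediate early genes, 0.32 for astrocyte and 1.06 for oligodendrocyte markers. Single genes turned direction in laryngeal neurons (Ttc27 1.09, Tasp1 0.81, Col1a1 -1.03, Col1a2 -0.037 and Slc6a5 1.76 among them) and in ACP neurons (Slc17a6 -0.24 and Col1a1 -0.26 among them). The causes were not tested.

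Reads outside Rn45s were fewer on the high side, and after thinning to 313668 reads the median number of genes was 6448 on the high and 7824.5 on the low side. A gene with no read in a neuron is not shown to be absent. No paired analysis was possible because the labels give 1 group and no shared replicate numbers.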
